A study of Mus musculus with 6 samples.

Results

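The genes described here are the transcription cofactors YAP and TAZ (Yap1 and Wwtr1), the 4 TEAD factors they work through (Tead1 to Tead4) and 4 of their direct targets (Ccn1, Ccn2, Ankrd1 and Amotl2). They were taken by symbol, and the 10 symbols matched 10 of the 29018 genes of the deposited table, each with 1 identifier. Poly(A) RNA was sequenced from mouse osteoblasts, the bone-forming cells, of the calvaria, the roof of the skull, taken from neonatal animals and differentiated in an osteogenic direction. There were 3 libraries of a knockout (KO) of NDR1, a Hippo-related kinase whose gene is Stk38, and 3 libraries of the wild type (WT). Strain, sex, the length of differentiation and the design of the KO allele were not given in the sources used here. Nor was it given whether replicates were separate animals or cultures. The p-values set the difference between genotypes against the spread among these libraries only. That spread may be technical variation, and the p-values may then not extend to other animals.

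In the Hippo pathway the MST kinases activate the LATS and NDR kinases, and LATS kinases phosphorylate YAP and TAZ, which holds them in the cytoplasm. NDR kinases have also been reported to phosphorylate YAP. YAP and TAZ do not bind DNA themselves. In the nucleus they bind TEAD factors, which recognise a short element in promoters and enhancers and switch on genes such as Ccn1 and Ccn2. In bone cells TAZ is also known as a coactivator of RUNX2, the master factor of osteoblasts. Phosphorylation and the place of YAP and TAZ in the cell were not measured in these libraries, which report mRNA only.

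Among the 10 genes, the secreted-protein targets Ccn2 and Ccn1 rose in KO cells by 1.97-fold and 1.40-fold, and the angiomotin-family target Amotl2 rose by 1.18-fold. Wwtr1 and Tead2 fell, to 0.83 and 0.85 of the WT level, Tead4 rose at a very low level, and Yap1, Tead1, Tead3 and Ankrd1 did not pass the test. Of the 10 genes, 4 were thus higher and 2 lower in edgeR's quasi-likelihood test at a Benjamini-Hochberg adjusted p under 0.05. Over all 18221 genes tested, 22.9% were called, 11.2% as higher and 11.7% as lower. The median log2 change was 0.17 over the 10 genes and 0.00 over all genes tested. The 3 KO values lay wholly above the 3 WT values for 5 of the 10 genes and wholly below them for 2, against 38.2% of all genes tested with groups that did not overlap (19.2% above and 19.1% below). Of all calls, 49.0% were higher in KO with TMM scaling, 63.0% in edgeR on library totals, 64.4% in limma on log2(FPKM + 1) and 45.0% in limma after median centring.

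**Figure D1:**
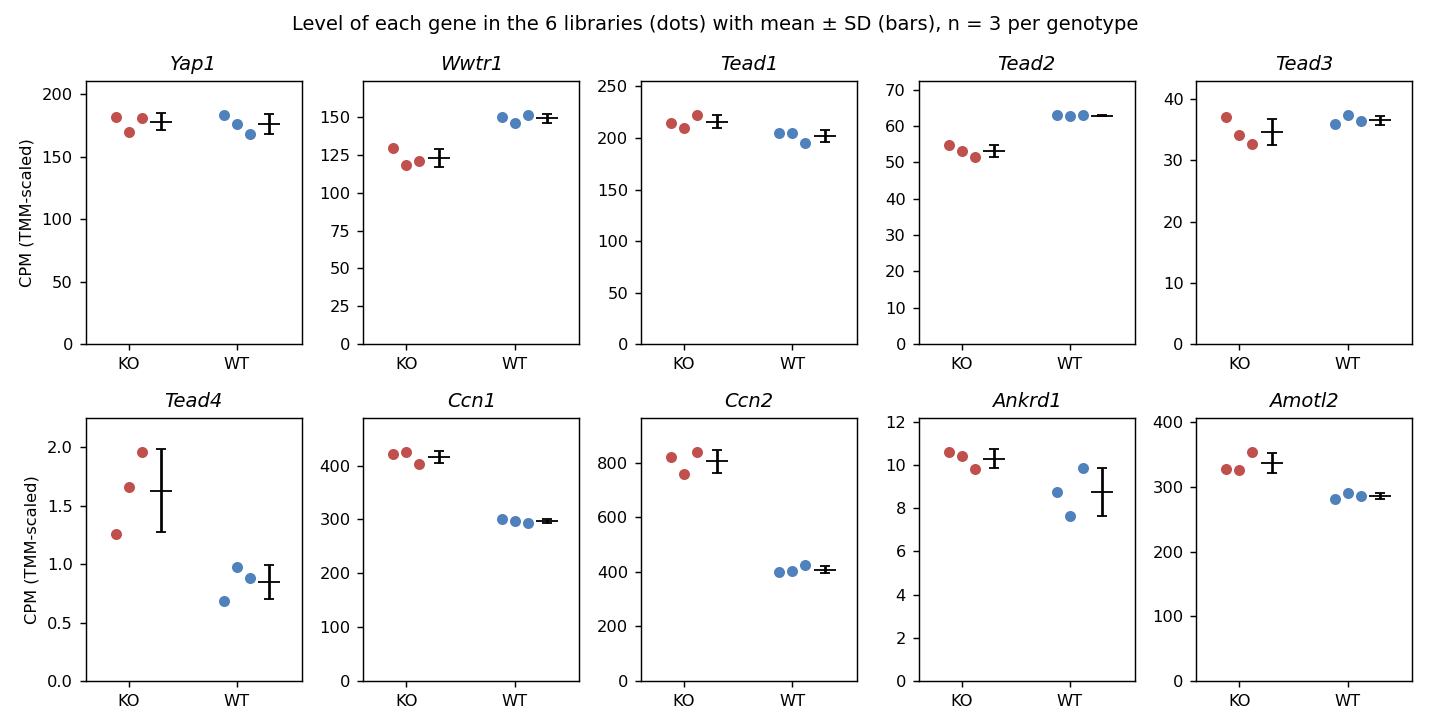
Level of each of the 10 genes in CPM (counts scaled to library size with TMM factors, y axis from 0, a scale of its own for each gene) in the 3 KO and 3 WT libraries (dots), with the mean and SD of each genotype (black bars). For Ccn2 the KO libraries lie between 759 and 839.6 CPM and the WT libraries between 399 and 424 CPM, whereas for Yap1 the groups overlap.

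The libraries held 61461870 to 76159034 counts in KO and 66308530 to 68395991 counts in WT. Stk38 itself stood at 50.2 ± 2.31 CPM in KO and 76.6 ± 3.24 CPM in WT (SD, n = 3 each; log2 change -0.61 ± 0.05, edgeR with Benjamini-Hochberg, adjusted p = 8.10e-06), so reads of the gene remained in the KO libraries. Of 8 osteoblast markers, 4 fell, 1 rose and 3 did not pass, against 11.7% called lower and 11.2% called higher over all genes tested. Their sum of 44240.5 to 46617 CPM in KO and 60322 to 62071 CPM in WT was mostly the collagen genes Col1a1 (23044 CPM in KO and 31683 CPM in WT) and Col1a2 (20296 CPM in KO and 28886 CPM in WT). Without them the other 6 summed to 1726 to 2002 CPM in KO and 823 to 926 CPM in WT. Most of that sum was Spp1, the only 1 of the 8 called higher, so it does not show a joint rise. Osteopontin, Spp1, rose (1729.7 CPM in KO and 658 CPM in WT, log2 change 1.39 ± 0.07) and alkaline phosphatase, Alpl, fell (42.7 CPM in KO and 97.0 CPM in WT, -1.19 ± 0.06), with adjusted p = 2.54e-07 and 1.81e-07 (edgeR with Benjamini-Hochberg). All 10 macrophage markers were higher in KO (sums of 334 to 376 CPM in KO and 121 to 161 CPM in WT), and their part in the results below was not tested. These are libraries of whole cultures, where fewer cells of a type and less RNA per cell cannot be told apart.

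Per unit of transcript length, the 10 genes spanned a wide range and kept nearly the same order in both genotypes. From high to low by mean FPKM (fragments scaled to transcript length and library total by the authors), the order in KO was Ccn2, Ccn1, Amotl2, Wwtr1, Yap1, Tead1, Tead2, Tead3, Ankrd1 and Tead4. Neighbours in this order had KO values that did not overlap. In WT the order was the same except that Ccn1 (134 to 137 FPKM) and Ccn2 (129 to 137 FPKM) changed places and overlapped. Ccn2 and Ccn1 ranked 107th and 145th by FPKM among the genes tested in KO, against 234th and 228th in WT. Tead4, at the other end, ranked 13906th in KO and 15236th in WT.

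YAP and TAZ mRNA differed in how they stood between the genotypes. Yap1 (ENSMUSG00000053110, chromosome 9, 7931999 to 8004596 on the minus strand in GENCODE M21 on GRCm38) encodes YAP. It had 182, 170.0 and 181 CPM in KO and 183, 176 and 168 CPM in WT, so the groups overlapped. Its log2 change was 0.02 ± 0.04 (SE), with a 95% interval of -0.07 to 0.11, which missed the threshold (edgeR with Benjamini-Hochberg, adjusted p = 0.804). Wwtr1 (ENSMUSG00000027803, chromosome 3, 57455649 to 57575910 on the minus strand) encodes TAZ. It had 129.7, 118 and 121 CPM in KO and 149.6, 146 and 151 CPM in WT, and every KO library was below every WT library. Wwtr1 fell by 0.27 ± 0.04 on the log2 scale (95% interval -0.36 to -0.19, edgeR with Benjamini-Hochberg, adjusted p = 4.64e-04), and it passed the test in all 15 alternatives run, with adjusted p up to 0.0209.

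The make-up of the YAP and TAZ pool is seen in the ratio of the FPKM of both genes within a library, which does not depend on how libraries are scaled to each other. There was more Wwtr1 than Yap1 mRNA per length in every library. The ratio of Wwtr1 to Yap1 averaged 1.34 ± 0.0393 in KO and 1.64 ± 0.0904 in WT (SD, n = 3 each), and the highest KO library, at 1.38, was below the lowest WT library, at 1.58. The summed FPKM of both was 43.1 ± 1.80 in KO and 46.4 ± 0.729 in WT (SD, n = 3 each). Unlike the ratio, this sum depends on how libraries are scaled. These ratios and sums were not tested.

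Of the 4 TEAD genes, which encode the DNA-binding partners, Tead2 fell, and Tead1 and Tead3 did not pass. Tead4 rose at a very low level, with a call that some alternatives lost. Tead2 (ENSMUSG00000030796, chromosome 7, 45215753 to 45233644 on the plus strand), a TEAD gene known from the early mouse embryo, had 54.8, 53.1 and 51.4 CPM in KO and 62.9, 62.6 and 62.9 CPM in WT. Every KO library was below every WT library, and the WT values were nearly equal. Tead2 fell by 0.24 ± 0.04 on the log2 scale (edgeR with Benjamini-Hochberg, adjusted p = 0.00151, up to 0.0181 over the 15 alternatives). The gene Cd37 overlaps Tead2 on the opposite strand and had 826 counts over all 6 libraries, against 23914 for Tead2. Opposite-strand transcripts also overlap Tead1 (283 counts against 86714) and Wwtr1 (6 counts against 56148), and no source used here states whether counting used strand.

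Tead1 (ENSMUSG00000055320, chromosome 7, 112679318 to 112906807 on the plus strand), which is broadly expressed and needed for heart development in mice, was the TEAD gene of highest FPKM. It had 215, 210.0 and 222 CPM in KO and 205, 205 and 195 CPM in WT, so that all KO libraries were slightly above all WT libraries. The log2 change, 0.10 ± 0.03, missed the threshold (edgeR with Benjamini-Hochberg, adjusted p = 0.0563). It passed in 6 of the 15 alternatives, among them edgeR without KO replicate 2 (log2 change 0.12, adjusted p = 0.0448), DESeq2 (log2 change 0.10, adjusted p = 0.0225) and edgeR on library totals without TMM (log2 change 0.15, adjusted p = 0.00711). The adjusted p of Tead1 lay between 0.00711 and 0.195 over the edgeR, limma and DESeq2 alternatives.

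Tead3 (ENSMUSG00000002249, chromosome 17, 28331671 to 28350817 on the minus strand) is known from the placenta. It had 37.0, 34.1 and 32.7 CPM in KO and 35.9, 37.3 and 36.4 CPM in WT. The groups overlapped, with KO replicate 1 near the highest WT library. The log2 change was -0.08 ± 0.06 (95% interval -0.20 to 0.05) and missed the threshold (edgeR with Benjamini-Hochberg, adjusted p = 0.401).

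Tead4 (ENSMUSG00000030353, chromosome 6, 128224288 to 128300823 on the minus strand), which is needed for the trophectoderm of the mouse embryo, was barely read. It had 96, 104 and 151 counts in KO and 45, 64 and 59 counts in WT, or 0.332, 0.440 and 0.515 FPKM in KO and 0.171, 0.251 and 0.224 FPKM in WT. The KO values were all above the WT values but varied by 21.8% (coefficient of variation in CPM) in KO and 17.2% in WT. Its log2 change was 0.94 ± 0.27 (95% interval 0.34 to 1.54, edgeR with Benjamini-Hochberg, adjusted p = 0.0298). The call was lost in 6 of the 12 alternatives that kept the gene, which were edgeR without a count filter (adjusted p = 0.0513), limma on FPKM without a filter (adjusted p = 0.0629) and edgeR without KO replicate 2, KO replicate 3, WT replicate 1 or WT replicate 3 (adjusted p = 0.0742, 0.113, 0.0985 and 0.0686).

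Together the TEAD genes gave a similar summed FPKM in both genotypes, with different shares. Summed TEAD FPKM was 31.2 ± 0.556 in KO and 31.1 ± 0.430 in WT (SD, n = 3 each). These sums rest on the authors' scaling to library totals. On that FPKM scale the median log2 change of genes with a mean FPKM of at least 1 was 0.04, against 0.00 with TMM over all genes tested. The shares within a library do not depend on it. Tead1 made up 47.9, 48.2 and 50.4% of the sum in KO and 44.8, 44.5 and 43.4% in WT. Tead2 made up 34.5, 34.5 and 33.0% in KO and 38.9, 38.4 and 39.6% in WT. The shares of Tead1 and of Tead2 did not overlap between genotypes, while that of Tead3 did (15.8 ± 0.808% in KO and 16.2 ± 0.307% in WT). Tead4 made up 1.38 ± 0.314% in KO and 0.692 ± 0.128% in WT. The ratio of Tead1 to Tead2 FPKM was 1.44 ± 0.0792 in KO and 1.14 ± 0.0344 in WT. None of these shares was tested.

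**Figure D2:**
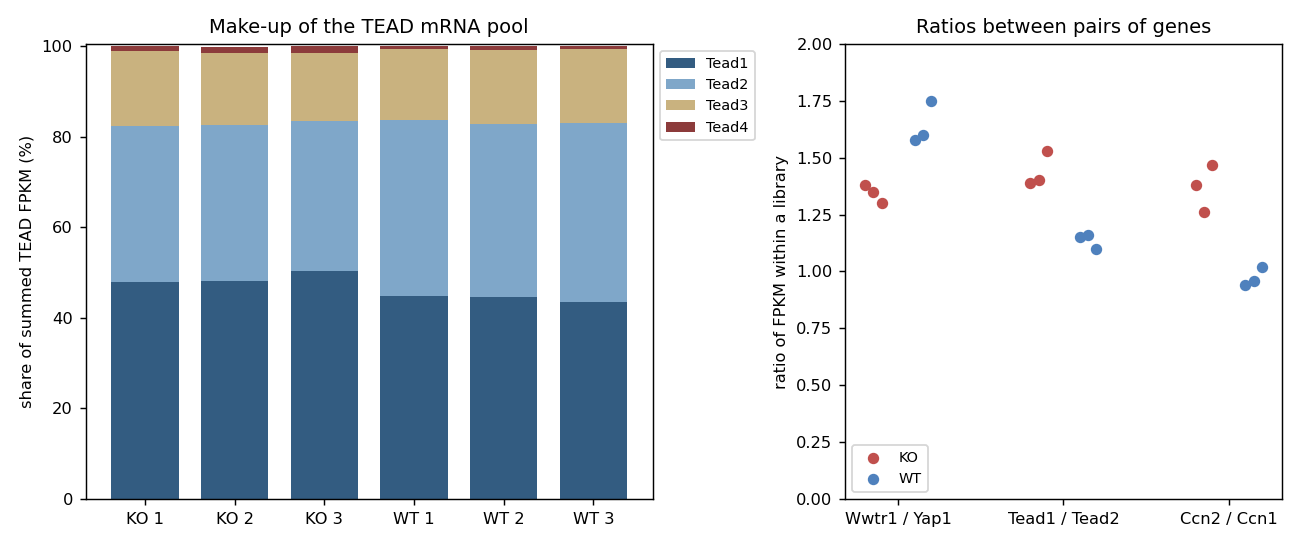
Left, share of each TEAD gene in the summed TEAD FPKM of each library (stacked bars, percent), with Tead1 at 47.9 to 50.4% in KO and 43.4 to 44.8% in WT. Right, ratio of FPKM between pairs of genes within each library (dots, 3 KO left and 3 WT right of each tick, axis from 0); the Wwtr1 to Yap1 ratio lies lower in KO, and the Tead1 to Tead2 and Ccn2 to Ccn1 ratios lie higher in KO, with no overlap.

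Promoter sequence of the targets is shown next, because TEAD factors are known to bind the element GGAATG or its reverse complement CATTCC. RefSeq windows on GRCm38.p6 were given for 7 of the 10 genes (not for Ccn2, Tead1 and Tead4). For Ccn1 the 250 bases before the RefSeq start are printed 5′ to 3′ on the strand of the gene, and for Ankrd1 and Amotl2 the 30 bases around each match, with every GGAATG or CATTCC in capitals. They are chr3:145649986-145650235 on the minus strand for Ccn1, chr19:36120037-36120066 and chr19:36119950-36119979 on the minus strand for Ankrd1 and chr9:102717727-102717756 on the plus strand for Amotl2.
Ccn1: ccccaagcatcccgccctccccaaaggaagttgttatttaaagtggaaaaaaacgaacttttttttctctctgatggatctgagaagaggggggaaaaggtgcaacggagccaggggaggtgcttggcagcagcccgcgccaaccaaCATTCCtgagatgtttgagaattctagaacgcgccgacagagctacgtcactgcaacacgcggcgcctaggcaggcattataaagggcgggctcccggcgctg
Ankrd1, farther match: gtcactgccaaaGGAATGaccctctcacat
Ankrd1, nearer match: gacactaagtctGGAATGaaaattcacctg
Amotl2: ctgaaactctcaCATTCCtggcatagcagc
The match in Ccn1 began 103 bases before the start, those in Ankrd1 210 and 123 bases before it, and that in Amotl2 65 bases before it. Ccn1 also held TATAAA, the TATA motif, 25 bases before its start. Windows were set by RefSeq starts, which can differ from the ends of the GENCODE genes given here. For Ankrd1 the RefSeq start lay 255 bases inside the GENCODE gene, whose exons covered all 250 bases of the window, and for Amotl2 it lay 1132 bases inside, with 136 of the 250 bases in GENCODE exons. The windows of Tead2 and Tead3, and that of the second Wwtr1 start, also overlapped GENCODE exons, whereas those of Yap1, Ccn1 and the other Wwtr1 start did not.

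The genes of the cofactors held the same letters. The stretches of 30 bases around them are chr9:8004720-8004749 on the minus strand for Yap1 and chr3:57576029-57576058 on the minus strand for Wwtr1, which has 2 RefSeq starts that share this match.
Yap1: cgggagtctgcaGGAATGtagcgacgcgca
Wwtr1: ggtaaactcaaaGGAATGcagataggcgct
In Yap1 the match began 141 bases before the start, and in Wwtr1 136 and 170 bases before the 2 starts. Tead3 held matches before 2 of its 3 RefSeq starts, and Tead2 held none. In all, 6 of the 7 genes held GGAATG or CATTCC in at least 1 window, as did 14.4% of the 27025 genes in the table and 12.6% of all 32851 windows of the same length. Of all windows, 1.02% held at least 2 matches, as the window of Ankrd1 and that of the second Tead3 start did. TATAAA, searched on the strand of the gene, stood in 7.59% of windows. The AP-1 element TGANTCA (the same on both strands) stood in 6.75% of windows and the CArG box of SRF (also the same on both strands) in 1.47%, and neither in a window of the 7 genes. A match is a description of letters and does not show that a factor binds there.

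**Figure D3:**
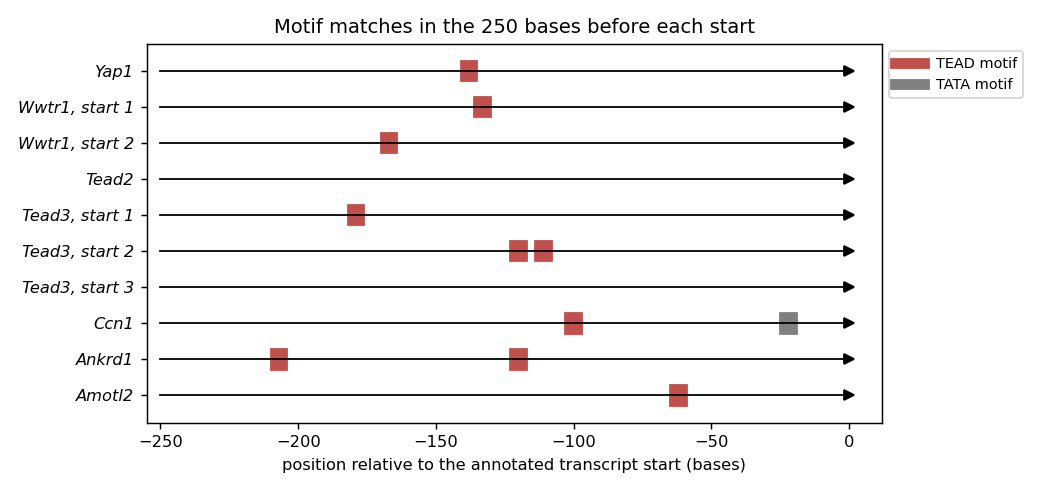
Matches to the TEAD motif (red) and the TATA motif (grey) in the 250 bases before each RefSeq start of the 7 genes with a sequence (x axis, bases relative to the start; arrowheads mark the start). Ankrd1 and the middle start of Tead3 have 2 TEAD matches, and Tead2 has none.

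The targets that encode secreted matricellular proteins of the CCN family had the highest FPKM of the 10 genes, and both rose. Ccn2 (connective tissue growth factor, ENSMUSG00000019997, chromosome 10, 24595442 to 24598683 on the plus strand) had 62637, 47601 and 64584 counts in KO and 26127, 26406 and 28422 counts in WT. In CPM it had 819.8, 759 and 839.6 in KO and 399, 402 and 424 in WT, so the lowest KO library was far above the highest WT library. Its log2 change was 0.98 ± 0.04 (95% interval 0.90 to 1.07, edgeR with Benjamini-Hochberg, adjusted p = 5.07e-08). Of all genes tested, 91.6% had a smaller change in size. A non-coding transcript on the opposite strand, Gm15270, overlaps Ccn2 and had 271 counts over the 6 libraries, against 255777 for Ccn2.

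Ccn1 (cysteine-rich angiogenic inducer, formerly Cyr61, ENSMUSG00000028195, chromosome 3, 145646976 to 145649981 on the minus strand) had 421, 425 and 403 CPM in KO and 300.1, 297 and 293 CPM in WT. All KO libraries were above all WT libraries, with a coefficient of variation of 2.77% in KO and 1.24% in WT. Its log2 change was 0.49 ± 0.03 (edgeR with Benjamini-Hochberg, adjusted p = 6.33e-07). Ccn1 and Ccn2 both passed in all 15 alternatives, Ccn1 with log2 changes of 0.48 to 0.54 and Ccn2 with 0.95 to 1.03. The ratio of Ccn2 to Ccn1 FPKM was 1.38, 1.26 and 1.47 in KO and 0.939, 0.957 and 1.02 in WT, so that Ccn2 exceeded Ccn1 in every KO library. This difference between the changes of both genes was not tested.

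Among the 4 other CCN genes, Ccn5 rose (log2 change 0.41 ± 0.03, 548, 542 and 593 CPM in KO and 422, 416 and 429 CPM in WT) and Ccn4, also known as a Wnt-induced gene, fell (-0.43 ± 0.04, 193, 176 and 196 CPM in KO and 259.9, 260.2 and 244 CPM in WT), with Benjamini-Hochberg adjusted p = 1.26e-05 and 4.73e-05 in edgeR. Ccn3 stood at 0.07 ± 0.03 and Ccn6 at 0.65 ± 0.27, and neither passed (adjusted p = 0.101 and 0.126). Ccn3 passed in 4 of the 15 alternatives, with adjusted p from 0.0133 to 0.303 over all of them in edgeR, limma and DESeq2. Ccn1 and Ccn2 together made up 44.7 ± 0.349% of the summed FPKM of the 6 CCN genes in KO and 35.4 ± 0.479% in WT (SD, n = 3 each).

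Amotl2 (ENSMUSG00000032531, chromosome 9, 102716672 to 102733418 on the plus strand) encodes an angiomotin-like protein that binds YAP at cell junctions and restrains it. It is thus both a target and an inhibitor. It had 328, 327 and 354 CPM in KO and 281, 289.9 and 286 CPM in WT, and the groups did not overlap. Its log2 change was 0.24 ± 0.03 (edgeR with Benjamini-Hochberg, adjusted p = 5.58e-04, up to 0.00471 over the 15 alternatives). Its relatives went both ways. Amot, the founding member of the family, had 144 ± 6.10 CPM in KO and 132 ± 2.77 CPM in WT (log2 change 0.13 ± 0.04, adjusted p = 0.0262). That call was lost in 5 of 15 alternatives, among them leaving out KO replicate 2, KO replicate 3, WT replicate 1 or WT replicate 2 (adjusted p = 0.0827, 0.0596, 0.101 and 0.0638 in edgeR). Amotl1 fell (-0.26 ± 0.03, 137 ± 3.89 CPM in KO and 164 ± 1.95 CPM in WT, adjusted p = 1.48e-04 in edgeR with Benjamini-Hochberg).

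Ankrd1 (ENSMUSG00000024803, chromosome 19, 36111961 to 36120099 on the minus strand) encodes an ankyrin repeat protein of heart and skeletal muscle that is widely used as a readout of YAP activity. It had the lowest FPKM of the 4 targets, and it had 10.6, 10.4 and 9.80 CPM in KO and 8.74, 7.65 and 9.84 CPM in WT. WT replicate 3 reached the KO range in CPM, whereas in FPKM the lowest KO library (3.23) was just above the highest WT library (3.15), and the coefficient of variation in CPM was 4.15% in KO and 12.5% in WT. Its log2 change was 0.23 ± 0.11 (95% interval -0.00 to 0.47) and it did not pass (edgeR with Benjamini-Hochberg, adjusted p = 0.157), nor did it in any of the 15 alternatives (adjusted p from 0.0654 to 0.403 in edgeR, limma and DESeq2). The point estimate was about as large as that of Amotl2, so a change of that size cannot be told from the spread at this level. Its muscle relatives Ankrd2 (log2 change -0.43 ± 0.96) and Ankrd23 (-0.16 ± 0.18) did not pass either (edgeR with Benjamini-Hochberg, adjusted p = 0.807 and 0.602). Skeletal muscle markers were lower in KO, with 5 of 9 tested genes called as lower and none as higher, against 11.7% and 11.2% over all genes tested. Their sums were 6.25 to 8.50 CPM in KO and 30.0 to 36.9 CPM in WT. Most of the WT sum was Myh8 (1.01 CPM in KO and 21.5 CPM in WT), so the size of the drop is mainly that of 1 gene. Mybph had no counts in KO and 41, 44 and 38 counts in WT. Ckm, which was too low to test, had no counts in KO and 4, 0 and 0 counts in WT. The part of muscle cells in the Ankrd1 level was not tested.

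**Figure D4:**
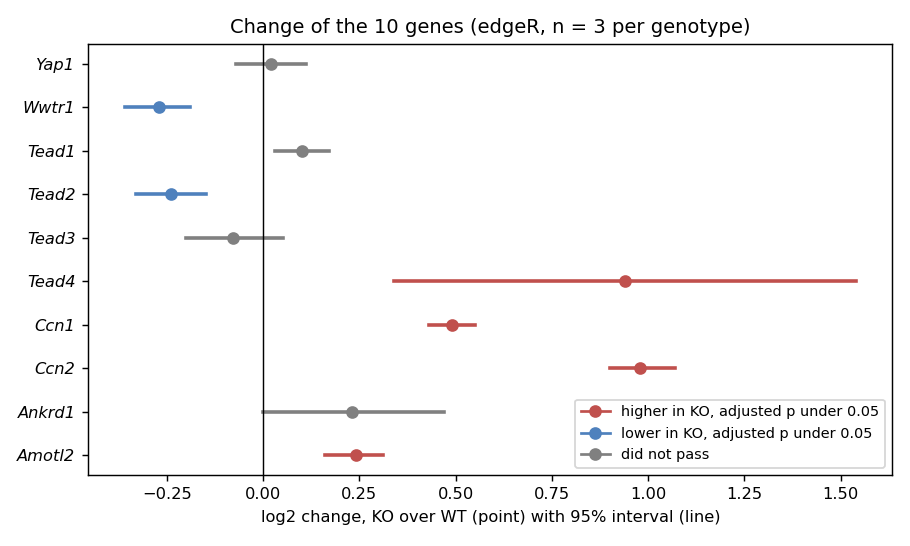
log2 change of the 10 genes, KO over WT (points), with 95% intervals that are not adjusted for the number of genes (lines), coloured by edgeR's call at a Benjamini-Hochberg adjusted p under 0.05. Ccn2 stands at 0.98 and Tead4, with the widest interval, at 0.94, while Wwtr1 (-0.27) and Tead2 (-0.24) lie below 0.

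Other known YAP and TAZ targets did not move in 1 direction. Of 18 further targets, 6 rose, 6 fell and 6 did not pass, with a median log2 change of -0.02, against 0.00 over all genes tested. Over all genes tested, 11.2% were called higher and 11.7% lower. Summed over the 18 genes, the level was 2676 to 2824 CPM in KO and 3331 to 3418 CPM in WT. Without Ccdc80 and Igfbp3, the other 16 summed to 1533 to 1620.4 CPM in KO and 1554 to 1576 CPM in WT, and the groups overlapped. Both genes left out had fallen and were picked after the values were seen, and no gene that rose was left out. The overlap therefore follows in part from that choice.

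The further targets that rose were the forkhead factor gene Foxf2 (3.53 ± 0.445 CPM in KO and 1.22 ± 0.148 CPM in WT, log2 change 1.53 ± 0.19), the Rac exchange factor Dock5 (0.52 ± 0.04), the phosphatase Ptpn14 (0.49 ± 0.03), the BMP-binding membrane protein Crim1 (0.24 ± 0.04), tissue factor F3 (0.15 ± 0.04) and myoferlin, Myof (0.11 ± 0.04). Their adjusted p in edgeR with Benjamini-Hochberg was 2.38e-04, 1.05e-05, 1.34e-06, 0.00239, 0.0214 and 0.0454 in that order. Ptpn14, whose product binds YAP and restrains it, had 197 ± 5.76 CPM in KO and 140.5 ± 1.34 CPM in WT. The call of Myof was lost in 8 of 15 alternatives, among them leaving out KO replicate 1, KO replicate 3, WT replicate 1 or WT replicate 3 (adjusted p = 0.163, 0.128, 0.114 and 0.161 in edgeR). That of F3 was lost without KO replicate 3, WT replicate 1 or WT replicate 2 (adjusted p = 0.0798, 0.074 and 0.083 in edgeR).

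The further targets that fell were the DNA damage gene Gadd45a (-1.16 ± 0.09), the growth factor Tgfb2 (-0.87 ± 0.03), the IGF-binding protein gene Igfbp3 (-0.80 ± 0.03), the ectonucleotidase Nt5e (-0.71 ± 0.09), the matrix gene Ccdc80 (-0.56 ± 0.03) and the RNA-binding protein gene Rbms3 (-0.23 ± 0.06). Their adjusted p in edgeR with Benjamini-Hochberg was 5.05e-06, 4.38e-08, 6.17e-08, 1.94e-04, 2.37e-07 and 0.0121 in that order. Igfbp3 averaged 241 CPM in KO and 419.7 CPM in WT, and Tgfb2 had 67.4 ± 1.46 CPM in KO and 124 ± 2.51 CPM in WT. Ccdc80, the gene of highest FPKM among the 18, had 945 ± 30.3 CPM in KO and 1395 ± 30.7 CPM in WT. Rbms3 lost its call in 6 of 15 alternatives, among them leaving out KO replicate 2, WT replicate 1 or WT replicate 3 (adjusted p = 0.0514, 0.0592 and 0.0589 in edgeR).

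**Figure D5:**
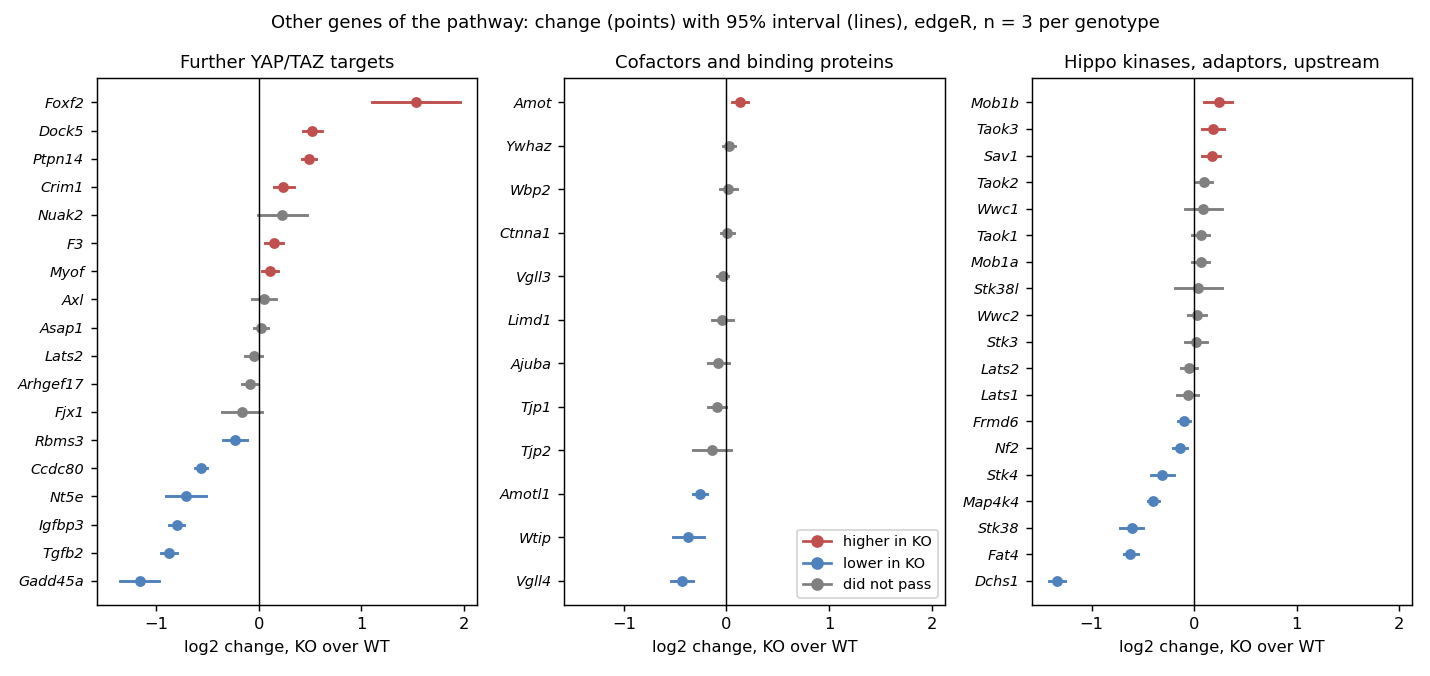
log2 change, KO over WT, of 18 further YAP and TAZ targets, 12 cofactors and binding proteins and 19 Hippo kinases, adaptors and upstream regulators (points) with 95% intervals that are not adjusted for the number of genes (lines), ordered by change. Foxf2 (1.53) and Gadd45a (-1.16) mark the ends of the targets, and the protocadherin genes Fat4 (-0.62) and Dchs1 (-1.34) lie lowest among the upstream regulators.

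Of 12 genes for proteins that bind or regulate TEAD, YAP or TAZ, 3 fell, 1 rose and 8 did not pass, with a median log2 change of -0.06. Over all genes tested, 22.9% were called. Vgll4, which competes with YAP for TEAD and represses its targets, had 55.2 ± 1.87 CPM in KO and 74.6 ± 3.56 CPM in WT (-0.43 ± 0.05, edgeR with Benjamini-Hochberg, adjusted p = 7.23e-05). Wtip, a LIM protein of the Ajuba family that inhibits LATS kinases, also fell (-0.37 ± 0.07, adjusted p = 0.00289 in the same test). Amotl1 was the third that fell, and Amot the gene that rose.

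Of 19 Hippo kinases, adaptors and upstream regulators, 7 fell, 3 rose and 9 did not pass, with a median log2 change of 0.02, against 11.7% called lower and 11.2% called higher over all genes tested. Stk38, the gene knocked out, is 1 of the 7 that fell. The lowest p belonged to Dchs1 and Fat4, which encode the large protocadherins that bind each other between cells, and to Map4k4, a kinase that acts on LATS beside the MST kinases. Dchs1 had 54.2 ± 1.02 CPM in KO and 137 ± 3.44 CPM in WT (-1.34 ± 0.03), Fat4 had 289.5 ± 7.51 CPM in KO and 444 ± 12.8 CPM in WT (-0.62 ± 0.03), and Map4k4 had 222 ± 1.13 CPM in KO and 292 ± 0.771 CPM in WT (-0.40 ± 0.02). Their adjusted p was 3.51e-09, 2.37e-07 and 9.63e-07 in edgeR with Benjamini-Hochberg.

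Ccn1, Ccn2 and Ankrd1 are also known to answer to other signals, and lists for 3 of these are given for comparison. Of 14 SRF and actin targets, 3 rose, 2 fell and 9 did not pass (median log2 change 0.03). They included a smooth muscle actin gene, Actg2 (0.46 ± 0.03), caldesmon, Cald1 (0.24 ± 0.02), zyxin, Zyx (0.22 ± 0.03), and tropomyosin 1, Tpm1 (-0.27 ± 0.03). Another smooth muscle actin gene, Acta2, had the highest CPM of the list and fell (2308 CPM in KO and 2656 CPM in WT). Its log2 change was -0.20 ± 0.03 (edgeR with Benjamini-Hochberg, adjusted p = 0.00133). Of 12 immediate early genes, 3 rose, 2 fell and 7 did not pass (median 0.02), with the AP-1 gene Junb at 0.58 ± 0.07 and the phosphatase Dusp1 at 0.44 ± 0.07, and with Klf4 (-0.16 ± 0.05) and Egr2 (-0.47 ± 0.14) lower. The calls of Klf4 and Egr2 were lost in 11 and 10 of 15 alternatives, with adjusted p up to 0.194 and 0.106 in edgeR, limma or DESeq2, and leaving out any library but KO replicate 1 ended that of Klf4 (adjusted p = 0.0632 to 0.118), as leaving out any library but WT replicate 3 ended that of Egr2 (0.0542 to 0.106, edgeR).

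Of 8 TGF-beta targets, 2 rose, 4 fell and 2 did not pass (median -0.03). The matrix gene Tgfbi rose (0.36 ± 0.04), and the feedback genes Pmepa1 (-0.21 ± 0.04) and Skil (-0.37 ± 0.08) and the latent TGF-beta binding protein gene Ltbp2 (-0.18 ± 0.04) fell. These 3 were not called by limma on log2(FPKM + 1) over all genes (adjusted p = 0.0508, 0.112 and 0.0929). The same background of 11.2% higher and 11.7% lower applies to all 3 lists.

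Markers of other cell types moved in both directions. Over all genes tested, 11.2% were called higher and 11.7% lower. Of 8 smooth muscle and pericyte markers, 5 rose, 1 fell and 2 did not pass. Their summed level was 558 to 588 CPM in KO and 584 to 598 CPM in WT, most of it from Pdgfrb, the gene that fell (416 CPM in KO and 462 CPM in WT). Without Pdgfrb the other 7 summed to 153 to 161 CPM in KO and 124 to 129.5 CPM in WT. The pericyte marker Rgs5 had 10.8, 10.2 and 8.87 CPM in KO and 2.51, 2.62 and 1.94 CPM in WT (log2 change 2.08 ± 0.15, edgeR with Benjamini-Hochberg, adjusted p = 3.89e-06). Of 6 chondrocyte markers, 2 rose and 2 fell (sums of 4757 to 5148 CPM in KO and 3367 to 3744 CPM in WT). Most of that sum was Col2a1, which rose (4488 CPM in KO and 2961 CPM in WT), as did Sox9 (119 CPM in KO and 83.2 CPM in WT). Col9a1 (139 CPM in KO and 329 CPM in WT) and Matn1 (0.399 CPM in KO and 9.40 CPM in WT) fell. Endothelial markers were near 0 in both genotypes, and of 4 tested, 2 fell, none rose and 2 did not pass. Their sums were 1.44 to 2.13 CPM in KO and 3.26 to 3.49 CPM in WT. Of 6 adipocyte markers, 5 fell (sums of 128 to 137 CPM in KO and 270.4 to 281 CPM in WT). Most of that sum was Lpl (122 CPM in KO and 251 CPM in WT). Others that fell were low, with Fabp4 at 0.607 CPM in KO and 6.84 CPM in WT. Plin1 had 0.0567 CPM in KO and 2.91 CPM in WT, and Adipoq 0.0782 CPM in KO and 1.76 CPM in WT. The part of these cells in the levels of Ccn1 and Ccn2 was not tested.

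The genes most like Ccn2 and Wwtr1 over the 6 libraries were found by the root mean square difference of centred log2 CPM among 9953 genes. For Ccn2 they were Pappa, a protease of IGF-binding proteins (387 CPM in KO and 198 CPM in WT, difference 0.028), Csgalnact1, an enzyme of chondroitin sulfate synthesis (0.046), and Hpgd, which breaks down prostaglandins (0.050). For Wwtr1 they were Gamt of creatine synthesis (0.021), the phosphatase Ptpn13 (0.023) and the adducin Add3 (0.024). The log2 changes of these genes were 0.92 to 0.96 for the first 3 and -0.28 to -0.25 for the other 3. Closeness to the changes of Ccn2 and Wwtr1 follows from how these genes were chosen.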

How the data were processed

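Gene expression was measured by RNA sequencing of poly(A) RNA in 3 KO and 3 WT libraries, grouped by the labels. The deposited table gave, for every library, whole-number counts per gene made by the authors (per the file headers), and FPKM values that were scaled by the authors to transcript length and library total. Cutadapt 1.9, HISAT2 2.0.4 and StringTie 1.3.4d are named in the submitters' processing notes, without parameters. The counting method, its strand setting and the build of the deposited coordinates were not given in the sources used here (a human build is named in the notes, although all identifiers are of mouse), so positions are those of GENCODE M21 on GRCm38, matched by Ensembl identifier.

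Counts were tested with edgeR 4.0.16 in R 4.3.3 (quasi-likelihood test, TMM, filterByExpr, no covariate, two-sided, Benjamini-Hochberg over all 18221 genes tested, threshold 0.05). All 10 genes passed the filter. SE was computed as the size of the log2 change divided by the root of the F statistic. CPM uses TMM-scaled library sizes. Alternatives used limma 3.58.1 on log2(FPKM + 1) or log2(FPKM + 0.1), and DESeq2 1.42.0. Library totals were 61461870 to 76159034 counts. Replicates of a genotype differed by a median chi-square of 2.60 to 3.02 and a mean of 9.21 to 16.08 per gene between 2 libraries. This measure takes counts as independent reads, which is not known here, so an excess over counting noise was not established. The fit was also run on simulated counts with planted changes, drawn independently and with the same dispersion for every gene. That run cannot speak to dependent reads or to technical replicates. Intervals reflect only counting error and variation among these 6 libraries.

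The genes and lists were chosen with earlier results of these data known. Named genes were the 10 genes, up to 4 of lowest p per list, all genes of lists of up to 4, Stk38, and the 3 genes most like Ccn2 and like Wwtr1 (mean log2 CPM of at least 3, no predicted genes). Foxf2, Dock5, Crim1, F3, Myof, Gadd45a, Nt5e, Rbms3, Acta2, Ckm, Cd37 and Gm15270 were named outside this rule, after their values were seen. Lats2 stands in 2 lists. Vgll1, Vgll2, Tie1 and Emcn were listed but not analysed here. Promoter windows are those of RefSeq on GRCm38.p6. Sums without chosen abundant genes of a list were added after the values were seen. The choice was not by rank alone, as Igfbp3 was left out while Axl, higher in KO, was kept.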

Additional observations from a re-analysis of the deposited data

How the results depend on the processing

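The 15 alternatives changed the normalization, the test, the filter, the pseudocount, the centring or the replicate block, or left out a library. The count of the 10 genes called was 6 and ran from 5 to 7, that of the 18 further targets was 12 and ran from 9 to 12, and that of all genes was 4179 and ran from 3302 to 4398. Leaving out each library in turn gave 5 to 6 of the 10 genes, 9 to 12 further targets and 3317 to 3576 genes in all. Wwtr1, Tead2, Ccn1, Ccn2 and Amotl2 kept direction and call in all 15. Tead4 could not be fitted under a mean FPKM of at least 1 (3 alternatives). Yap1, which did not pass, changed sign without KO replicate 1 (-0.00) and without WT replicate 3 (-0.01), and Ankrd2 without KO replicate 2 (0.11; -1.50 to 0.11 over the libraries left out). The cause was not tested.

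Scaling shifted the median log2 change of all genes by at most 0.05 and moved the share of calls that were higher in KO, which was 49.0% with TMM, 63.0% in edgeR on library totals without TMM, 62.3% to 64.5% in limma on FPKM and 45.0% after median centring. Tead1 was called in 6 alternatives, and Tead4 lost its call in 6. No shared variation of same-numbered KO and WT libraries was seen: they deviated from their group means with correlations of -0.04, -0.03 and -0.01. These correlations over all genes tested cannot exclude a pairing that touches few genes. With a replicate block, 6 of the 10 genes, 11 of the further targets and 3888 genes in all were called, and no call among the 10 genes changed. Tead4 had 45 to 151 counts per library, and the part of depth in its lost calls was not tested.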
